A study of Mus musculus with 20 samples.

Results

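Ppara, Ppargc1a, Cpt1a, Cpt2, Acadm, Acadl, Ehhadh and Pdk4 are 8 genes of fatty acid oxidation and of its control by peroxisome proliferator-activated receptor alpha (PPARA). They were taken by gene name from the array annotation, by a rule that uses no measured value, but were chosen with earlier results of these data known. They make up 8 of the 27827 gene names measured, or 10 of 41174 probes. Kidney RNA of male C57BL/6 mice aged 8 to 12 weeks, a plain inbred strain without any engineered allele, was measured with 1 dye on 20 Agilent arrays covering the mouse genome, 4 in each of 5 groups. For Control mice neither surgery nor treatment was stated. IRI mice had both renal pedicles clamped for 45 min under anesthesia, followed by 6 h of reperfusion. IRI+Hemin mice were given Hemin, an inducer of heme oxygenase 1, at 25 mg/kg into the peritoneum 24 h before the same ischemia. IPC+IRI mice had been preconditioned by 15 min of bilateral ischemia 7 days earlier, and Hemin mice were given the drug alone at 25 mg/kg. The time from the drug to kidney collection was not stated for the Hemin group. The comparisons ask what ischemia and reperfusion changes and how preconditioning or Hemin modifies it. No group was described as sham-operated, so anesthesia and surgery cannot be told apart from ischemia in any comparison with Control or Hemin.

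Fatty acids are the main fuel of the proximal tubule, the most energy-demanding segment of the nephron. To be burned they are activated to acyl-CoA, carried across the mitochondrial membranes as carnitine esters, and shortened stepwise by beta-oxidation, while very long and dicarboxylic chains are shortened in peroxisomes. PPARA is a ligand-activated nuclear receptor that pairs with the retinoid X receptor and drives many of these genes, and PGC-1alpha, the product of Ppargc1a, is a coactivator that raises mitochondrial gene expression. Pdk4 encodes a kinase that switches off pyruvate dehydrogenase and so spares glucose when fat is burned.

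The DNA to which PPARA and the related receptor ERRalpha bind is built on the half-site AGGTCA, and the promoters below are shown because their genes differ in response while few of them hold this word. The 250 bases upstream of the start in the RefSeq table (GRCm38.p6) were found for all 8 genes and read on both strands. AGGTCA occurred in 2 of the 8, Cpt1a and Acadm, against 4607 of all 32851 promoters of the same length. In Acadm the match extended to AAGGTCA, the form preferred by ERRalpha, which overlaps the half-site and was found in 4.08% of all promoters. The direct repeat with 1 base between, AGGTCANAGGTCA, was in none of the 8 and in 0.0335% of all. The following lines give the promoters of the genes with a match and of Pdk4 and Ehhadh, written 5′ to 3′ on the strand of the gene, with the half-site in capitals (read on the opposite strand, hence TGACCT).
Cpt1a, chr19:3323051-3323300, plus strand: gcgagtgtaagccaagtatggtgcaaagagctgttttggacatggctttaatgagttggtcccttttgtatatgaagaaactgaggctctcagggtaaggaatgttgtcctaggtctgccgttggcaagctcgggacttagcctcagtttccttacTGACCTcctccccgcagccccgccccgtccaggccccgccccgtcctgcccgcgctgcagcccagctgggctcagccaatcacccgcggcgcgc
Acadm, chr3:153944644-153944893, minus strand: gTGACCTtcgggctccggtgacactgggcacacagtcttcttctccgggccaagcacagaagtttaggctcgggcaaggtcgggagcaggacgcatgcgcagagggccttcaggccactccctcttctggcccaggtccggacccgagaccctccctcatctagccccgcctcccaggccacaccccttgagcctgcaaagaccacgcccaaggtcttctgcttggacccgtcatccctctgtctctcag
Pdk4, chr6:5496279-5496528, minus strand: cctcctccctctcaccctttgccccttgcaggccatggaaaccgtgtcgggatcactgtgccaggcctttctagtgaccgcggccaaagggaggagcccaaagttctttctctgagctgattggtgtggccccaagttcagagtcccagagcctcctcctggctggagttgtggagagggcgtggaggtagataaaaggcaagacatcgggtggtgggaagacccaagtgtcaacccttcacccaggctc
Ehhadh, chr16:21787835-21788084, minus strand: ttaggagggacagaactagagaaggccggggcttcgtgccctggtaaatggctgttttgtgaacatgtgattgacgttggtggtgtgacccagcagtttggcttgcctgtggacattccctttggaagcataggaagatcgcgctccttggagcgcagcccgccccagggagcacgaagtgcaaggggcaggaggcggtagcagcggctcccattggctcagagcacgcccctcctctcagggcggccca
A match is a string of letters in this window and not a shown binding site, and sites further away were not searched.

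Each gene was read by 1 probe, except Cpt1a and Ppargc1a with 2 each. The probes of Ppargc1a lie apart on chromosome 5 of mm9, the build of the array annotation, and they are given here because they disagreed in size. Their first 30 of 60 bases are shown.
Ppargc1a probe 1, designed on NM_008904, chr5:51848928-51848987, minus strand: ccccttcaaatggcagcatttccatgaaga
Ppargc1a probe 2, designed on AK032149, chr5:51846897-51846956, minus strand: attcatttatcaccagcatattgtgttctg
Pdk4 probe, designed on NM_013743, chr6:5433441-5433500, minus strand: tatgaacccatgggagactttaaactcttg
Whether a probe lies in a coding exon or in a trailing part of the transcript was not resolved here, since no mm9 gene models were used.

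Levels are given as log2 expression, the log2 of a gene's signal divided by the 75th percentile of its own array, so that 0 equals that percentile. Such a level belongs to its probe and is not compared between genes. All 8 genes were well above background, a flag of the scanner software, on all 20 arrays, which 14555 of the 27827 names reached. The 75th percentile ran from 146.7 to 357.9 intensity units over the arrays, and its group median was lowest in IRI (198.8) and highest in IRI+Hemin (283.2). The scanner software put 57.4% to 67.4% of the gene names well above background on an array. Precision is limited by having 4 arrays per group. All arrays of a group were on 1 slide that no other group shared, and the effects of slide and treatment cannot be told apart. Control and IRI shared a scanning day, which no other comparison below did. The summed level of 15 proximal tubule markers overlapped between all groups (858 to 1018 in Control and 689 to 985 in IRI, in multiples of the 75th percentile), with none of them below background. Within that sum, 4 of the 15 fell and none rose in IRI vs Control, 6 fell and 1 rose in IRI+Hemin vs Hemin, and 6 fell and 1 rose in IPC+IRI vs Control, beside 33.9%, 27.9% and 32.8% of all genes called lower. Of these markers, 4 were higher and 5 lower in IPC+IRI vs IRI, beside 26.3% and 17.8% of all genes. In IRI+Hemin vs IRI 5 were higher and 3 lower, beside 26.3% and 18.1%. Their part in the results was not tested. A change is called at an adjusted p below 0.05 (limma fitted to all 20 arrays, Benjamini-Hochberg over all genes tested). Where no array of a group overlaps the other group, the two-sided exact permutation test gives p = 0.0286, the smallest it can give. The labels name replicates without saying that each came from its own mouse, so p-values measure the spread between these arrays. In whole kidney, fewer cells of a type and less RNA per cell cannot be told apart.

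In IRI vs Control, 2 of the 8 genes rose and 1 fell, where 17.1% of all 17712 genes tested were called higher and 33.9% lower. The genes that rose were Pdk4 and Cpt1a, and the gene that fell was Ppargc1a. In IRI+Hemin vs Hemin, 5 rose (Pdk4, Ppara, Ehhadh, Ppargc1a and Cpt1a) and none fell, against 16.5% and 27.9% of 18629 genes. With no adjustment, 5 of the 8 had p below 0.05 in the upward direction and 0 in the downward one, where 3574 and 6133 of the 18629 genes did. The median log2 fold change of the 8 genes was 0.16 in the first comparison and 0.61 in the second, and that of all genes tested was -0.17 and -0.15. In IPC+IRI vs Control, 2 rose (Pdk4 and Ppargc1a) and 2 fell (Cpt1a and Ehhadh), against 23.3% and 32.8% of all genes. In IPC+IRI vs IRI, Ppargc1a alone of the 8 rose and 4 fell (Cpt1a, Acadl, Ehhadh and Pdk4), while 26.3% of all genes were called higher and 17.8% lower. In IRI+Hemin vs IRI, 4 rose (Ppargc1a, Cpt2, Ehhadh and Acadm) and 2 fell (Cpt1a and Acadl), against 26.3% and 18.1% of all genes. In Hemin vs Control, 2 rose (Cpt2 and Acadm) and 3 fell (Pdk4, Cpt1a and Acadl), against 18.5% and 17.6%. The interaction, which sets the change from Hemin to IRI+Hemin against that from Control to IRI, was positive for 2 genes (Ppargc1a and Ehhadh) and negative for none, where 5.83% and 1.96% of 19060 genes were called. With no adjustment, 4 of the 8 passed in the positive and 0 in the negative direction, beside 2633 and 1624 of all genes. An F test over the 5 groups was passed by all 8 genes and by 82.5% of 19160 genes, so passing it sets none of them apart.

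**Figure D1:**
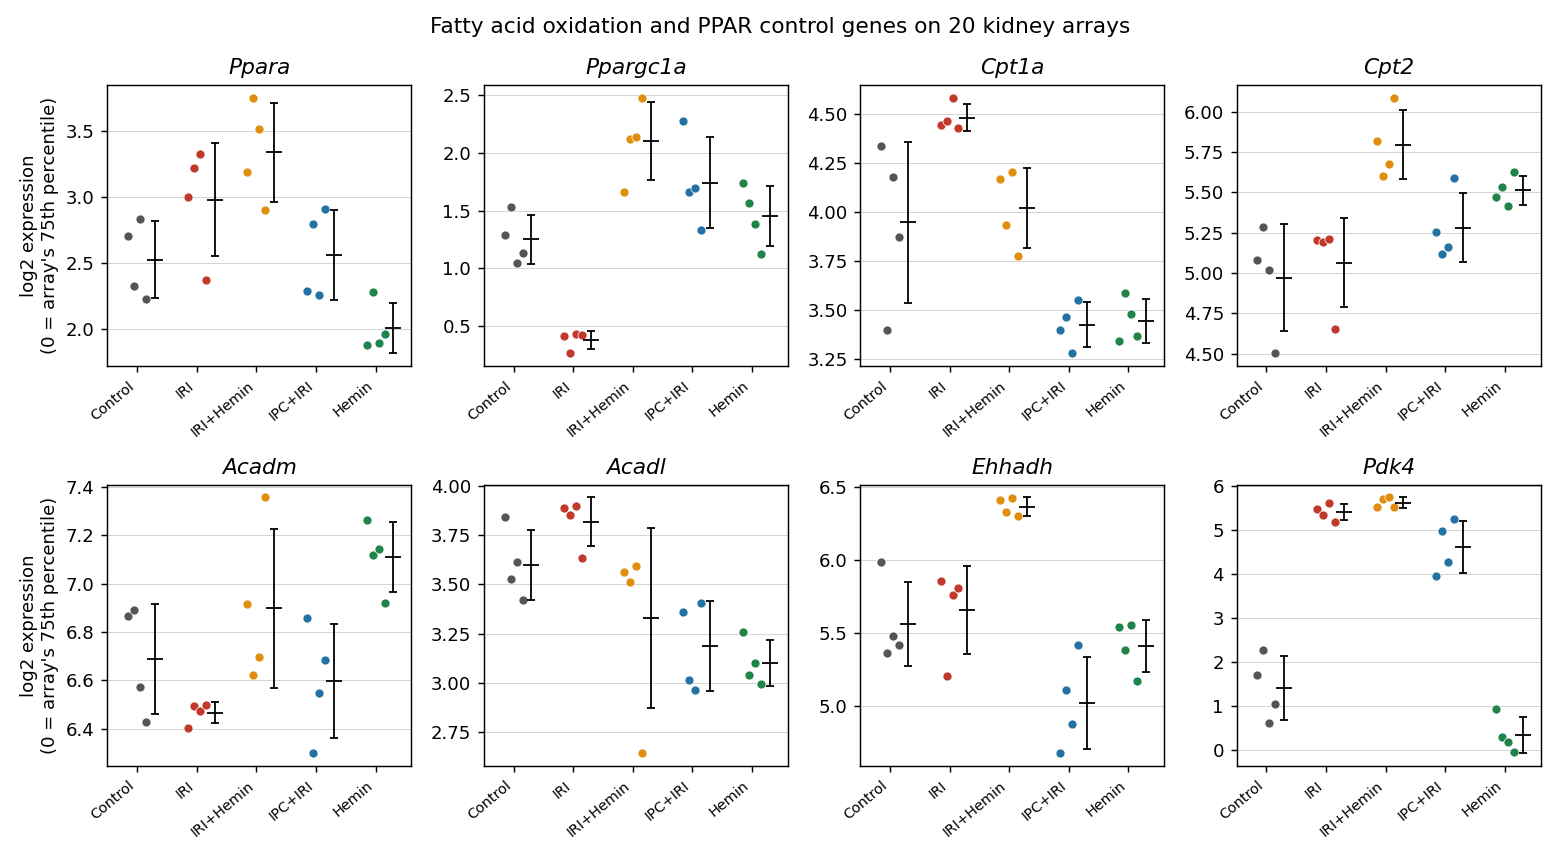
Log2 expression (vertical axis, 0 at the 75th percentile of the array) of each of the 8 genes on the 20 arrays, by group. Coloured points are single arrays, in replicate order from left to right, and the black mark and bar beside them give the mean and SD of 4 arrays. Pdk4 separates the groups with ischemia (3.96 to 5.74) from those without (-0.04 to 2.27), and Ppargc1a is lowest in IRI (0.27 to 0.43).

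Pdk4 showed the widest range, and it was high in every kidney that had been ischemic. The 4 Control arrays stood at 1.70, 2.27, 0.60 and 1.03 for Pdk4, and the 4 IRI arrays at 5.48, 5.34, 5.61 and 5.18. The IRI arrays lay close together and far above all Control arrays, which spread over more than a log2 unit. The difference of 4.00 (standard error 0.31, adjusted p = 2.68e-08) is a 16.0-fold rise. On IRI+Hemin arrays Pdk4 read 5.52, 5.71, 5.74 and 5.53, and on Hemin arrays 0.93, 0.29, 0.18 and -0.04. The Hemin arrays were thus the lowest of all groups, and the rise from Hemin to IRI+Hemin was 39.0-fold (5.28, standard error 0.31, adjusted p = 3.22e-09). Hemin alone lay below Control by 1.06 (adjusted p = 0.0137), with Hemin replicate 1 above Control replicate 3, and the interaction of 1.28 for Pdk4 did not pass (adjusted p = 0.0861). Without Control replicate 3 that interaction was 1.55 and passed (adjusted p = 0.0329). The difference between Hemin and Control was -0.50 without normalization between arrays (adjusted p = 0.243) and was also lost in the deposited matrix.

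Preconditioned kidneys took an intermediate place for Pdk4. The IPC+IRI arrays read 3.96, 4.97, 4.26 and 5.24, all above every Control array by 9.23-fold on average (3.21, standard error 0.31, adjusted p = 3.87e-07). Replicate 4 lay within the range of IRI and the other 3 below it. The difference from IRI, -0.79 (standard error 0.31, adjusted p = 0.0464), was lost on leaving out any 1 of 12 arrays, for instance IPC+IRI replicate 1 (-0.58, adjusted p = 0.157). It was also lost in 7 of 14 alternatives. Among these were no normalization (-0.48, adjusted p = 0.304), the deposited matrix (adjusted p = 0.339), normexp (0.1) and the replicate block (0.054). IRI+Hemin and IRI differed by 0.22 (95% interval -0.43 to 0.88), and their arrays overlapped.

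Ppargc1a, the coactivator gene, was the member that fell in IRI. Its Control arrays read 1.29, 1.53, 1.05 and 1.13, and its IRI arrays 0.42, 0.27, 0.43 and 0.43. All IRI arrays were below all Control arrays, with little spread among them, and Ppargc1a fell by 0.86 on the log2 scale (standard error 0.19, adjusted p = 0.00104), or 1.82-fold. In IRI+Hemin it read 1.66, 2.12, 2.14 and 2.47, and in Hemin 1.74, 1.56, 1.39 and 1.12. In these treated kidneys the order was opposite, with the ischemic arrays higher by 0.64 (adjusted p = 0.0113) although 1 array overlapped. That difference was 0.56 without normalization (adjusted p = 0.0732) and in the deposited matrix (adjusted p = 0.0862). The interaction for Ppargc1a was 1.51 (standard error 0.27, adjusted p = 0.00234). The IPC+IRI arrays stood at 2.27, 1.66, 1.69 and 1.33, none as low as any IRI array.

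Against IRI, Ppargc1a was higher by 1.71 in IRI+Hemin (standard error 0.19, adjusted p = 4.92e-06, 3.27-fold) and by 1.35 in IPC+IRI (adjusted p = 3.83e-05, 2.56-fold), and both sets of arrays cleared all 4 IRI arrays. These values rest on the same IRI arrays. Hemin alone differed from Control by 0.20 (95% interval -0.20 to 0.60). IPC+IRI exceeded Control by 0.49 (adjusted p = 0.0365), a call that leaving out any 1 of 6 arrays ended, with 0.31 (adjusted p = 0.150) without IPC+IRI replicate 1.

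The probes of Ppargc1a moved in the same direction in IRI vs Control but by different amounts. Probe 1 fell by 1.11 (adjusted p = 0.000743) and probe 2 by 0.56 (adjusted p = 0.0115). In IRI+Hemin vs IRI, probe 1 was higher by 2.28 and probe 2 by 0.67 (adjusted p = 2.00e-06 and 0.00398). From Hemin to IRI+Hemin, probe 1 of Ppargc1a rose by 0.89 (adjusted p = 0.0052), whereas probe 2 differed by 0.08 (adjusted p = 0.742). From Control to IPC+IRI the values were 0.74 (adjusted p = 0.0122) and -0.01 (adjusted p = 0.98). The interaction passed on probe 1 (2.00, adjusted p = 0.0013) and not on probe 2 (0.63, adjusted p = 0.121). Thus the fall in IRI and the higher level of the protected kidneys over IRI were seen by both probes, while every excess of Ppargc1a over Control or Hemin kidneys was seen by probe 1 alone. The difference between the probes was not tested.

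**Figure D2:**
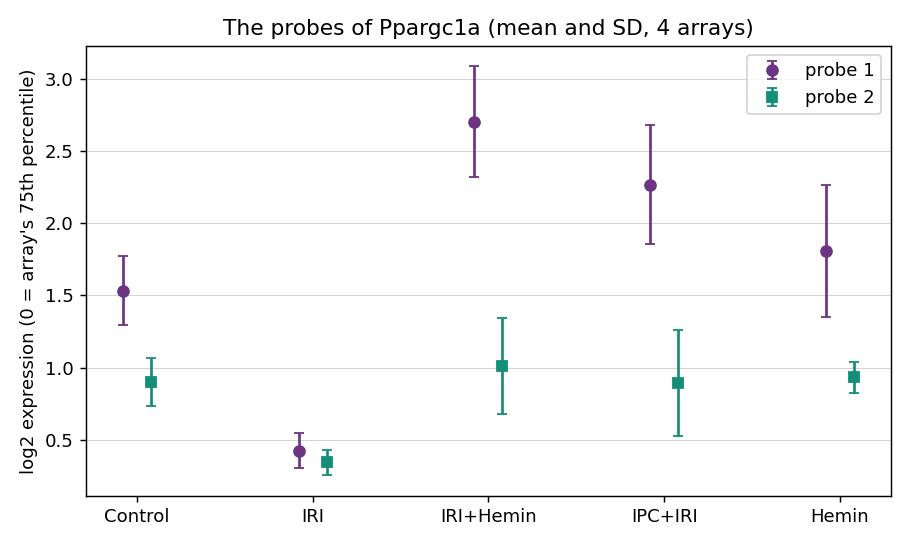
Log2 expression of the probes of Ppargc1a by group (mean and SD over 4 arrays, circles for probe 1 and squares for probe 2). Probe 1 spans group means from 0.42 in IRI to 2.70 in IRI+Hemin, and probe 2 from 0.34 in IRI to 1.01 in IRI+Hemin. Both are lowest in IRI.

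Ppara, the receptor gene, rose where ischemia followed Hemin. It read 3.19, 3.76, 3.52 and 2.90 in IRI+Hemin and 1.88, 2.28, 1.89 and 1.96 in Hemin. All IRI+Hemin arrays were higher, by 1.34 (standard error 0.23, adjusted p = 0.00016) or 2.53-fold. In IRI the values were 3.00, 3.22, 3.33 and 2.37, against 2.71, 2.33, 2.83 and 2.23 in Control. IRI replicate 4 sat among the Control arrays, and the difference for Ppara of 0.46 (95% interval -0.02 to 0.93, adjusted p = 0.0998) did not pass. Without that array it was 0.66 (adjusted p = 0.0175). The interaction of 0.88 had an adjusted p of 0.104, so a difference between the responses with and without Hemin was not shown for Ppara. The 10 spots of its probe varied on an array with an SD of 0.044 to 0.082 on the log2 scale, far less than the arrays of a group did (SD 0.19 to 0.43). IPC+IRI, at 2.28, 2.79, 2.25 and 2.91, overlapped Control and IRI (adjusted p = 0.899 and 0.139).

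Cpt1a encodes the outer-membrane enzyme that commits long-chain acyl groups to the mitochondrion. It was highest in IRI, at 4.45, 4.47, 4.58 and 4.43, while Control read 4.34, 3.40, 4.18 and 3.87. All IRI arrays were above all Control arrays, with a mean rise of 0.53 (standard error 0.16, adjusted p = 0.00828, 1.45-fold). Control replicate 2 was the lowest of its group. From Hemin (3.34, 3.59, 3.48 and 3.37) to IRI+Hemin (4.17, 3.93, 4.21 and 3.78) Cpt1a rose by a similar amount, 0.58 (adjusted p = 0.0066), again with no overlap, and the interaction was 0.04 (95% interval -0.42 to 0.51). Preconditioned kidneys had the lowest group mean for Cpt1a, at 3.40, 3.47, 3.28 and 3.55, but overlapped Hemin (means 3.43 and 3.45). They lay under every IRI array by 1.06 (standard error 0.16, adjusted p = 5.81e-05, 2.08-fold), and below Control by 0.52 (adjusted p = 0.00864) with 1 Control array among them. Both probes of Cpt1a gave the difference from IRI, as -1.05 and -1.08. IRI+Hemin was lower than IRI by 0.46 (adjusted p = 0.0233), without overlap.

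The changes of Cpt1a depended on the scaling. The rise from Hemin to IRI+Hemin was lost under normexp (adjusted p = 0.0505), without normalization (0.49, adjusted p = 0.243) and in the deposited matrix. The rise in IRI vs Control had an adjusted p of 0.0702 after quantile normalization, 0.136 after normexp background correction and 0.0535 without the 4 arrays highest in adipocyte markers described below. IPC+IRI vs Control and IRI+Hemin vs IRI were both lost under normexp and with no normalization (-0.08, adjusted p = 0.838, and -0.10, adjusted p = 0.824), and the latter also without IRI replicate 3, IRI+Hemin replicate 2 or IRI+Hemin replicate 4 (adjusted p up to 0.0767). With no normalization between arrays, IPC+IRI vs IRI was -0.74 (adjusted p = 0.0611) and Hemin vs Control turned from -0.50 (adjusted p = 0.0188) to 0.07, a setting that moved the median of all genes there from 0.06 to 0.62. The arrays of Hemin and Control overlapped for Cpt1a. That call was also lost under normexp (adjusted p = 0.148), in the deposited matrix scaled to its 75th percentile (0.0763) and with only the arrays compared (0.0652). Leaving out Control replicate 1, Control replicate 3 or Hemin replicate 1 ended it too (adjusted p up to 0.0754).

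Cpt2, the inner-membrane partner that releases the acyl group from carnitine, was higher in both groups given Hemin. It was at 5.42 to 5.63 in Hemin and 5.60 to 6.09 in IRI+Hemin, above Control (4.50 to 5.28) and IRI (4.65 to 5.21). Cpt2 was higher by 0.54 in Hemin than in Control (adjusted p = 0.018) and by 0.73 in IRI+Hemin than in IRI (standard error 0.17, adjusted p = 0.00195), without overlap in either case. IRI and Control differed by 0.09 (95% interval -0.26 to 0.45). Without Control replicate 4 the difference of Hemin from Control was 0.39 (adjusted p = 0.0763). The deposited position of its probe covers 40 bases of the genome for a probe of 60.

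Acadm and Acadl, the medium- and long-chain acyl-CoA dehydrogenases that open each turn of beta-oxidation, had calls of opposite sign in the groups given Hemin, and most of these calls were fragile. Acadm was at 6.92 to 7.26 in Hemin against 6.43 to 6.89 in Control, higher by 0.42 (adjusted p = 0.0421), and at 6.62 to 7.36 in IRI+Hemin against 6.40 to 6.50 in IRI, higher by 0.43 (adjusted p = 0.0311). Acadl was at 2.99 to 3.26 in Hemin against 3.42 to 3.84 in Control, lower by 0.50 (adjusted p = 0.0341). It was also lower in IRI+Hemin (2.64 to 3.59) than in IRI (3.64 to 3.90), by 0.49 (adjusted p = 0.0306), and lower in IPC+IRI (2.96 to 3.40) than in IRI, by 0.63 (adjusted p = 0.0076). In none of these did the arrays overlap. In Hemin vs Control, Acadl turned to 0.06 with no normalization and in the deposited matrix and was lost on leaving out any 1 of 5 arrays (Control replicates 1 and 3, Hemin replicates 2, 3 and 4; adjusted p up to 0.101), and Acadm was lost on leaving out any 1 of 6 (Control replicates 3 and 4, IRI replicate 3, Hemin replicates 1, 2 and 3; up to 0.137). Acadl in IPC+IRI vs IRI was lost under normexp, with no normalization (-0.32, adjusted p = 0.45) and in the deposited matrix. Ischemia itself moved neither gene past the threshold, with Acadm at -0.22 (95% interval -0.55 to 0.10) and Acadl at 0.22 (95% interval -0.15 to 0.59) in IRI vs Control.

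IRI+Hemin replicate 4 stood apart in both dehydrogenases, highest for Acadm at 7.36 and lowest for Acadl at 2.64. It also had the lowest 75th percentile of its group (173.8, with 251.4 to 357.9 on the others), the highest proximal tubule sum (1224 against 662 to 870) and the lowest injury sum (102 against 132 to 212), and the part of these in its values was not tested. Without it, IRI+Hemin vs IRI was 0.28 for Acadm (adjusted p = 0.126) and -0.26 for Acadl (adjusted p = 0.114). Those calls were also lost without IRI replicate 1, 2 or 3 for either gene and without IRI+Hemin replicate 1 for Acadm (adjusted p between 0.0507 and 0.0695), and for Acadl under normexp, with no normalization (-0.13, adjusted p = 0.769) and in the deposited matrix. IRI+Hemin vs Hemin was then called for both, at -0.37 for Acadm (adjusted p = 0.044) and 0.46 for Acadl (adjusted p = 0.00899), in place of -0.21 and 0.23.

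Ehhadh encodes the peroxisomal bifunctional enzyme, a textbook PPARA target. Its IRI+Hemin arrays were tight and high, at 6.41, 6.33, 6.43 and 6.30, against 5.54, 5.39, 5.56 and 5.17 in Hemin. The rise was 0.95 (standard error 0.17, adjusted p = 0.000317, 1.94-fold) without overlap. In the untreated kidneys no such step was seen, with 5.86, 5.21, 5.76 and 5.81 in IRI and 5.99, 5.36, 5.48 and 5.42 in Control, a difference of 0.10 (95% interval -0.27 to 0.46). The interaction for Ehhadh, 0.86 (standard error 0.25), had an adjusted p of 0.0397, and leaving out any 1 of 12 arrays ended the call, up to an adjusted p of 0.0809 without Hemin replicate 4. IPC+IRI was lowest, at 4.68, 5.11, 4.88 and 5.42, below Control by 0.54 (adjusted p = 0.013) and below IRI by 0.64 (adjusted p = 0.00647), with 1 array overlapping in each. With no normalization these were -0.11 (adjusted p = 0.801) and -0.32 (adjusted p = 0.438), both were lost under normexp, and the former also without Control replicate 1 (-0.40, adjusted p = 0.0589) or IPC+IRI replicate 1 (-0.43, adjusted p = 0.0511). IRI+Hemin exceeded IRI by 0.71 (adjusted p = 0.00314), with all arrays higher.

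**Figure D3:**
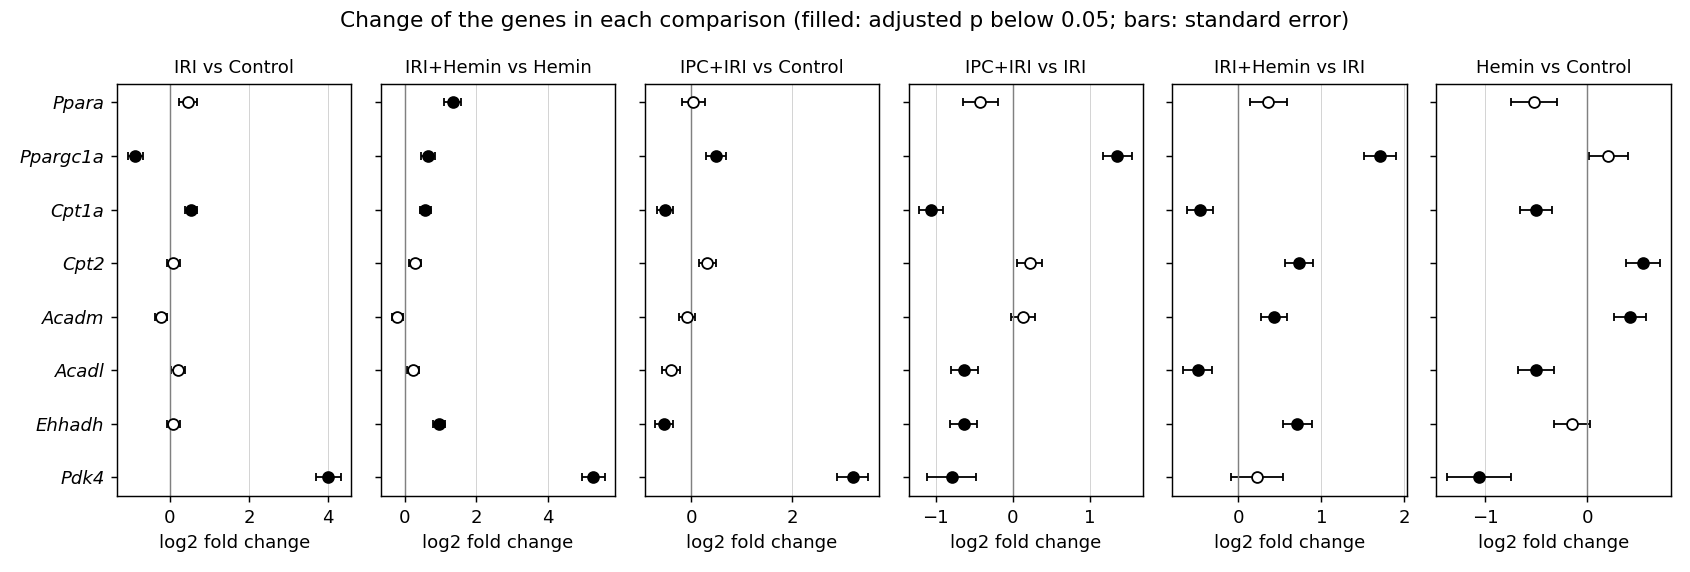
Log2 fold change (horizontal axis, each panel on its own scale) of the 8 genes in 6 comparisons, with bars of 1 standard error and filled circles for an adjusted p below 0.05. Pdk4 rises by 4.00 in IRI vs Control and 5.28 in IRI+Hemin vs Hemin. Ppargc1a is the only one of the 8 called on different sides of 0 in those comparisons, at -0.86 and 0.64.

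The orders of the group means differed from gene to gene. Ppara and Pdk4 shared the order IRI+Hemin, IRI, IPC+IRI, Control, Hemin from high to low, but only the step of Pdk4 from IPC+IRI to Control was free of overlap. Ppargc1a ran IRI+Hemin, IPC+IRI, Hemin, Control, IRI, with a clear step only above IRI. Cpt1a ran IRI, IRI+Hemin, Control, Hemin, IPC+IRI and Ehhadh ran IRI+Hemin, IRI, Control, Hemin, IPC+IRI, each with a clear step only below the first group. Cpt2, Acadm and Acadl had no neighbours in their orders that were free of overlap. Over the 20 arrays the 28 pairs of these genes correlated with r between -0.61 and 0.78 (median 0.25), and within groups, after removal of the group means, with r between -0.41 and 0.56 (median 0.13). These are descriptions over arrays that share slides and scaling.

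For each gene the names most like it over the 20 arrays were taken from 14532 names. The profile nearest to Pdk4 was that of Lgals3, which encodes galectin-3 (r = 0.98), followed by Nrg1 and Mall (both r = 0.97). For Ehhadh they included Vnn1 (r = 0.89), which stands on the list of PPARA targets used below, and Mertk (r = 0.86). The values of r for the rest are given in parentheses. For Ppargc1a they were Tbc1d4 (0.94), ENSMUST00000092884 (0.94), Fam168a (0.93). Those of Cpt1a were Pctk3 (0.94), Tnks (0.94), Mia3 (0.94). For Cpt2 they were Ap3b1 (0.92), Peci (0.90), Prmt7 (0.90). Those of Acadm were 5730409G15Rik (0.91), Thnsl2 (0.91), Mrps5 (0.90). For Acadl they were Hsdl2 (0.91), Arid4b (0.87), Nln (0.86). Those of Ppara were Fam179b (0.90), Adarb1 (0.89), 4633401B06Rik (0.88).

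The wider pathway was followed in 8 lists holding 137 other genes, of which 135 were on the array. In IRI vs Control, 26 of 130 tested were higher and 18 lower, beside 17.1% and 33.9% of all genes, and in IRI+Hemin vs Hemin 34 of 131 were higher and 18 lower, beside 16.5% and 27.9%. The counts of the single lists below stand against the same shares. Of 17 mitochondrial beta-oxidation enzymes, 1 was higher and 2 lower in IRI vs Control, and in IRI+Hemin vs Hemin 4 rose and 1 fell. In the same comparisons, acyl-CoA activation and carnitine transfer gave 3 higher and 2 lower, then 2 and 2, of 16 genes. Peroxisomal beta-oxidation gave 1 higher and 2 lower, then 3 and 3, of 14. Fatty acid uptake and binding gave 2 and 1, then 1 and 0, of 11, and ketone body genes 1 and 0, then 0 and 0, of 6. Regulators of the PPAR, PGC1 and ERR families gave 9 and 9 of 33, then 10 and 8 of 34, and control of pyruvate dehydrogenase 1 and 0, then 1 and 3, of 11. In IPC+IRI vs IRI the 8 lists held 16 genes called higher and 34 called lower of 131 (26.3% and 17.8% of all genes), and in IRI+Hemin vs IRI 27 and 32 of 129 (26.3% and 18.1%).

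The trifunctional protein, which carries out the last steps of long-chain beta-oxidation, is encoded by Hadha and Hadhb. Hadha was at -0.56 to -0.00 in Hemin and 0.23 to 0.45 in IRI+Hemin, a rise of 0.67 (adjusted p = 0.00116). It was lower in IPC+IRI (-0.63 to -0.16) than in IRI (0.07 to 0.57) by 0.70 (adjusted p = 0.00082) and than in Control by 0.58 (adjusted p = 0.00229). With Hemin alone Hadha was lower than in Control by 0.56 (adjusted p = 0.00604). All 4 calls of Hadha were lost with no normalization between arrays and in the deposited matrix, and its value in Hemin vs Control ran from -0.67 to 0.24 over 14 alternatives. Hadhb passed in IRI+Hemin vs IRI alone, at 0.38 (adjusted p = 0.0243), and this call was lost under quantile normalization, in the deposited matrix, without the 4 adipocyte-rich arrays described below and on leaving out any 1 of 5 arrays (IRI replicates 1 and 2, IRI+Hemin replicates 1, 2 and 3). Acadvl, the very-long-chain dehydrogenase, Slc25a20, the carnitine carrier of the inner membrane, and Crot, a peroxisomal acyltransferase, passed in none of the comparisons.

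Genes that bring fatty acids into the cell or activate them moved in different ways. Acsl1, an acyl-CoA synthetase, was at 4.47 to 4.55 in IRI+Hemin, above Hemin (3.46 to 3.75) by 0.87 (adjusted p = 6.62e-05). It was also higher than Control by 0.34 in IRI (adjusted p = 0.0435, held in 4 of 14 alternatives) and by 0.48 in IPC+IRI (adjusted p = 0.00535, held in 10). Cd36, a fatty acid translocase, rose by 0.50 in IRI vs Control (adjusted p = 0.0145) and was lower than IRI by 1.11 in IPC+IRI (adjusted p = 4.37e-05) and by 0.78 in IRI+Hemin (adjusted p = 0.000808). Fabp1, a cytosolic fatty acid binding protein, fell by 1.24 in IRI vs Control (adjusted p = 0.00943), from -2.78 to -2.36 in Control down to -4.02 to -3.47 in IRI. It was higher than IRI by 1.28 in IRI+Hemin (adjusted p = 0.00917). The calls of Acsl1 given here were lost in the deposited matrix, and its value in IPC+IRI vs Control ran from -0.83 to 0.92. The fall of Fabp1 in IRI vs Control ran from -1.43 to -0.13 over 14 alternatives and was lost under normexp background correction and quantile normalization, and its difference between IRI+Hemin and IRI ran from 0.03 to 1.65 and was lost under normexp. Also lost was the call of Cd36 in IRI vs Control under normexp, without normalization and in the deposited matrix. The lower Cd36 of IPC+IRI than of IRI held in 14 of 14 alternatives, and that of IRI+Hemin in 12. Slc22a5, the carnitine importer of the plasma membrane, fell by 1.16 in IPC+IRI vs Control (adjusted p = 3.04e-06) and by 0.85 in Hemin vs Control (adjusted p = 0.000295), without overlap in either. It was also lower in IRI than in Control by 0.41 (adjusted p = 0.0189, held in 9 of 14 alternatives and with overlap) and in IPC+IRI than in IRI by 0.75 (adjusted p = 0.000358, held in 12). The difference between IPC+IRI and Control held in 14 of 14 alternatives, while that between Hemin and Control was as small as -0.28 among them and was lost when arrays were not normalized and in the deposited matrix.

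The list of 23 other PPARA targets was counted in both ischemia comparisons, and the difference between the counts was not tested. In IRI vs Control, 8 of 22 tested were higher and 2 lower (median 0.10), where 17.1% and 33.9% of all genes were called. In IRI+Hemin vs Hemin 13 of 22 were higher and 1 lower (median 0.92), where 16.5% and 27.9% were. These comparisons share no arrays, and over 14 other settings the counts higher ran from 4 to 9 and from 7 to 13. In the interaction 1 of 22 was called higher and none lower. Cyp4a14, a fatty acid omega-hydroxylase, was called in neither, at -0.29 (adjusted p = 0.766) and 0.97 (adjusted p = 0.287), and was higher by 2.78 in IRI+Hemin than in IRI (adjusted p = 0.00482).

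Other PPARA targets rose in both backgrounds. Plin2 (Adfp in the array annotation), the coat protein of lipid droplets, read 3.54 to 4.29 in Control and 6.97 to 7.52 in IRI, a rise of 3.27 (standard error 0.39, adjusted p = 3.51e-06), and it rose by 2.87 from Hemin to IRI+Hemin (adjusted p = 2.39e-05). Angptl4, a secreted inhibitor of lipoprotein lipase, rose by 2.12 (adjusted p = 5.78e-05) and 2.42 (adjusted p = 2.79e-05) in the same comparisons, and Ucp2, a mitochondrial carrier, by 0.82 (adjusted p = 0.00341) and 1.29 (adjusted p = 0.000122). The call of Ucp2 in IRI vs Control was lost when log2 values were averaged over probes, and its value ran from 0.04 to 1.43 over 14 alternatives. In IPC+IRI vs Control, Plin2 and Angptl4 were higher by 2.27 (adjusted p = 0.000116) and 1.45 (adjusted p = 0.00154), but Ucp2 was lower by 0.53 (adjusted p = 0.0396). Ucp2 was also lower in IPC+IRI than in IRI by 1.36 (adjusted p = 8.76e-05), and with Hemin alone than in Control by 0.91 (adjusted p = 0.00318).

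**Figure D4:**
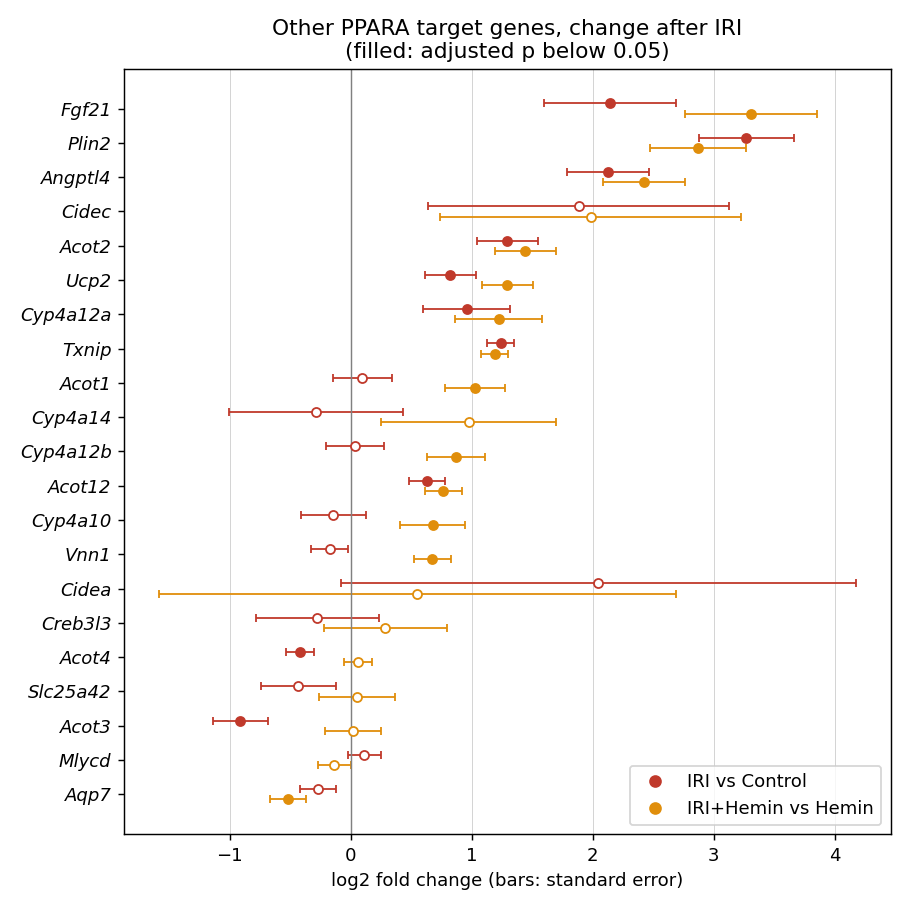
Log2 fold change after ischemia (horizontal axis, bars of 1 standard error) of 21 other PPARA target genes tested in both IRI vs Control (red) and IRI+Hemin vs Hemin (orange), with filled circles for an adjusted p below 0.05. Of the genes plotted, 8 are called higher in the first comparison and 12 in the second. Plin2 lies at 3.27 in the first and 2.87 in the second.

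Among partners of the PPARs, Esrra, which encodes ERRalpha, fell in every comparison of ischemic kidneys with Control or Hemin kidneys. It lay at 3.09 to 3.37 in Control and 2.18 to 2.75 in IRI, a fall of 0.84 (adjusted p = 0.000258), and it fell by 0.87 from Hemin to IRI+Hemin (adjusted p = 0.000297) and by 0.68 from Control to IPC+IRI (adjusted p = 0.00139), without overlap. The last of these was -0.25 and not called with no normalization between arrays. Rxra, the partner receptor, fell by 0.41 (adjusted p = 0.0211) and 0.62 (adjusted p = 0.00198) in the first and second of these comparisons, and was 0.63 higher in IPC+IRI than in IRI (adjusted p = 0.00169). All 3 calls of Rxra were lost when log2 values were averaged over probes, and the first held in 9 of 14 alternatives and not without IRI replicate 4. Tfam, the mitochondrial transcription factor downstream of PGC-1alpha, was higher than IRI by 0.96 in IRI+Hemin (adjusted p = 0.000519) and by 0.62 in IPC+IRI (adjusted p = 0.012), without overlap, the latter lost when log2 values were averaged over probes. None of the other pyruvate dehydrogenase kinases was called higher in IRI. In IRI vs Control, Pdk1 differed by -0.28, Pdk2 by -0.10 and Pdk3 by -0.10, with no call, and Pdk3 fell by 0.64 in IRI+Hemin vs Hemin (adjusted p = 0.0018). Pdk2 was lower in IPC+IRI than in IRI by 1.05 (adjusted p = 0.000435), a call lost without normalization and in the deposited matrix.

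The remaining genes chosen for naming were as follows. Etfdh, which passes electrons from beta-oxidation to ubiquinone, differed by 0.41 (adjusted p = 0.014) in IRI+Hemin vs IRI, but by values from -0.14 to 0.77 over 14 alternatives, with the call lost when log2 values were averaged over probes and with only the arrays compared. Hsd17b4, a peroxisomal multifunctional enzyme, was higher by 0.56 (adjusted p = 0.0417) with Hemin alone than in Control, and Slc27a2, a very-long-chain acyl-CoA synthetase and transporter, differed by -0.46 (adjusted p = 0.00879) in the same comparison. Against IRI, IRI+Hemin gave 0.59 (adjusted p = 0.0274) for Hsd17b4 and -0.62 (adjusted p = 0.000691) for Slc27a2. Over 14 alternatives the value of Slc27a2 ran from -0.57 to 0.24 in Hemin vs Control, held as a call in 10, and its call in IRI+Hemin vs IRI held in 11, with both lost when arrays were not normalized and in the deposited matrix. Ppargc1b, the relative of Ppargc1a, differed by -0.46 (adjusted p = 0.0453) in IRI vs Control and by 0.50 (adjusted p = 0.036) in IRI+Hemin vs IRI, calls that held in 8 and 11 of 14 alternatives and were lost on leaving out any 1 of 12 and of 5 arrays. From Hemin to IRI+Hemin, Lpin1, a phosphatidate phosphatase and coactivator, changed by 0.88 (adjusted p = 0.0231), Cyp4a10 by 0.68 (adjusted p = 0.0478) and the hepatocyte nuclear factor gene Hnf4a by -0.53 (adjusted p = 0.0375). The calls of Cyp4a10 and Hnf4a there held in 6 of 14 alternatives, and that of Lpin1 in 12 but not without IRI+Hemin replicate 1 or Hemin replicate 4. That of Hsd17b4 in Hemin vs Control held in 9 of 12 and was lost on leaving out any 1 of 7 arrays (all but Control replicate 2 of those compared), and its call in IRI+Hemin vs IRI held in 11 of 14 and was lost on leaving out any 1 of 4 arrays (IRI replicate 4, IRI+Hemin replicates 1, 2 and 3). Pparg and Acacb passed in no comparison, and Ppard was well above background on too few arrays to be tested outside the comparisons with the Hemin group.

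Markers of other cells differed between arrays. The summed level of 9 adipocyte markers ran from 4.12 to 107 in Control, 7.82 to 122 in IRI, 18.2 to 69.6 in IRI+Hemin, 5.35 to 48.2 in IPC+IRI and 6.20 to 31.0 in Hemin, in multiples of the 75th percentile. The 4 highest arrays were Control replicate 2, IRI replicate 1, IRI+Hemin replicate 2 and IPC+IRI replicate 2. Control replicate 2 also had the highest Pdk4 (2.27) and the lowest Cpt1a (3.40) of its group. Without these 4 arrays Pdk4 rose by 4.26 in IRI vs Control and by 5.26 in IRI+Hemin vs Hemin, and Ppargc1a fell by 0.78 in IRI vs Control (adjusted p = 0.0155). Among the 8 genes, the calls lost without them were Cpt1a in IRI vs Control, Acadl in 3 comparisons (both protected groups against IRI, and the drug alone against Control), Pdk4 in Hemin vs Control (-0.77, adjusted p = 0.0614) and the interaction of Ehhadh (1.01, adjusted p = 0.0662). Among the other calls given above, those of Hadhb and Hsd17b4 in IRI+Hemin vs IRI, of Rxra in IRI vs Control and of Ppargc1b in both its comparisons were lost. The summed level of 10 leukocyte markers was 3.91 to 5.69 in Control, 4.62 to 6.61 in Hemin, 6.87 to 12.7 in IRI, 8.32 to 17.3 in IRI+Hemin and 12.01 to 39.99 in IPC+IRI, which overlapped both other ischemic groups. The sum of 8 injury markers was 37.8 to 45.2 in Control and 33.2 to 33.9 in Hemin, against 160 to 224 in IRI, 102 to 212 in IRI+Hemin and 88.3 to 135 in IPC+IRI. The sum of podocyte markers (6 genes) was lower in IRI (4.01 to 4.44) than in Control (5.34 to 7.08), and that of endothelial markers (8 genes) higher in IRI+Hemin (22.4 to 29.7) than in IRI (15.8 to 21.2), each without overlap. Taken singly, 3 endothelial markers were called higher and 1 lower in IRI+Hemin vs IRI (-1.30 to 1.08), beside 26.3% and 18.1% of all genes. In IPC+IRI vs IRI 0 were higher and 4 lower, beside 26.3% and 17.8%. Collecting duct markers (9 genes) were at 72.1 to 91.2 in IPC+IRI against 51.8 to 71.6 in Control, and those of thick limb and distal tubule (9 genes) at 242 to 436 over all arrays. The part of these markers in the results was not tested. The summed level of 10 skeletal muscle markers was 0.55 to 1.52 over all arrays. Ckm was the marker of this list below background on every array, and 1 to 4 of the 10 were so throughout a group.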

How the data were processed

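RNA of whole kidneys was labelled with Cy3, hybridised to Agilent 4×44K arrays and read with Agilent Feature Extraction 9.5.3.1, per the labels and file headers. The deposited scanner files hold processed signal intensity, background-corrected by that software. The deposited matrix holds log2 values of the same arrays, matching the scanner signal within 0.001 for 100% of 33598 single-spot probes, and was used only as an alternative, with 18.1% of its values blank. The authors analysed log2 values with SAM, which was not run here. Outlier spots and control spots were left out, the mean over spots and then over probes gave a value per gene, and log2 was taken after division by the 75th percentile of the array. Genes with at most 1 missing value that were well above background on at least 3 of 4 arrays in either group compared were tested with limma 3.58.1 (R 4.3.3; 5 group means, 15 residual degrees of freedom, Benjamini-Hochberg per comparison, threshold 0.05) in 7 comparisons. The scripts were tested on simulated data. Genes named are the 8, a list of 31 others whatever their values (2 of them are not reported here), and for each of the 8 the 3 genes with the highest r; list members beyond these are given as counts. The 8 genes and all lists were chosen with earlier results of these data known. The alternatives are background correction, scaling, probe summary, filter, the deposited matrix, arrays fitted, a replicate block, a fold threshold of 2 and each array left out in turn; leaving out 4 arrays high in adipocyte markers was added after seeing the data. Promoters come from RefSeq tables (GRCm38.p6), probe positions from the file annotation (mm9). Figures were drawn with matplotlib 3.10.9 (Python 3.11.15).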

Additional observations from a re-analysis of the deposited data

Results flagged for a closer look

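Of 40 groups of 4 arrays (8 genes in 5 groups), 4 held an array far from the other 3 by Dixon's test at the 95% level, and chance gives about 1 in 20 groups. Ppargc1a was at 0.27 in IRI replicate 2, below the other IRI arrays. Cpt2 was at 4.65 in IRI replicate 4. Ehhadh was at 5.21 in IRI replicate 2. Acadl was at 2.64 in IRI+Hemin replicate 4, and the calls that rest on this array are given with it above.

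The change after ischemia differed between kidneys with and without Hemin for Ppargc1a, by 1.51 (limma, adjusted p = 0.00234), and for Ehhadh, by 0.86 (adjusted p = 0.0397). The first did not pass on probe 2 of Ppargc1a alone (0.63, adjusted p = 0.121). The second was lost in 6 of 12 alternatives, among them quantile normalization (adjusted p = 0.0703) and the replicate block (0.0586), and on leaving out any 1 of 12 arrays.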

How the results depend on the processing

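The direction of the called differences of the 8 genes held under the alternatives in which each could be tested (14, or 12 where the deposited matrix left the gene untested), except in Hemin vs Control, where Cpt1a turned to 0.0651 and Acadl to 0.0649 with no normalization between arrays, and to 0.0573 and 0.0649 in the deposited matrix. Counts moved more. Those from the matrix cover fewer genes: blanks left Acadm untested there in all comparisons, Ehhadh in all but IPC+IRI vs Control, and Cpt2 in Hemin vs Control, IRI+Hemin vs Hemin and the interaction. In IRI vs Control 1 gene was higher under normexp, no normalization, quantile normalization, either form of the deposited matrix, the 2-fold threshold and without the 4 adipocyte-rich arrays, and 0 were lower under the 2-fold threshold. In IRI+Hemin vs Hemin 3 were higher with no normalization, and 2 in the matrix (5 genes tested) or at 2-fold. In IPC+IRI vs Control 0 were lower under normexp, no normalization, the matrix or 2-fold and 1 in the matrix scaled to its 75th percentile, and 1 was higher under quantile normalization, the percentile of detected probes, the mean of log2 over probes, only the arrays compared, the replicate block or 2-fold. In IPC+IRI vs IRI 1 was lower under normexp, the scaled matrix or 2-fold and 0 with no normalization or the matrix, where no normalization gave 2 higher. In IRI+Hemin vs IRI 0 were lower under normexp, no normalization, either matrix or 2-fold and 1 with only the arrays compared or without the adipocyte-rich arrays, while 2 were higher in either matrix and 1 at 2-fold. In Hemin vs Control 1 was lower under normexp, the scaled matrix, 2-fold or without the adipocyte-rich arrays and 0 with no normalization or the matrix, while 1 was higher with the percentile of detected probes, the matrix, no filter or the replicate block and 0 in the scaled matrix or at 2-fold. The gene higher in the matrix was Ppargc1a (0.77, adjusted p = 0.012), and Cpt2 and Acadm, higher otherwise, were not tested in either matrix. The interaction kept 1 higher under normexp, no normalization, quantile normalization, either matrix, no filter, the replicate block, without the adipocyte-rich arrays or at 2-fold. Other genes gained a call. Acadl was lower in IPC+IRI vs Control under quantile normalization (adjusted p = 0.0107), the percentile of detected probes (0.017), only the arrays compared (0.0482) and the replicate block (0.0426), and Cpt2 was higher there with no normalization and in the matrix. With no normalization Cpt2 was also higher in IPC+IRI vs IRI and Ppargc1a in Hemin vs Control. Ppara was lower in Hemin vs Control under quantile normalization (adjusted p = 0.0283), the percentile of detected probes (0.0365) and only the arrays compared (0.0324), and higher in IRI+Hemin vs IRI under normexp (0.036). Without IRI replicate 4 Ppara was called in IRI vs Control (0.66), IPC+IRI vs IRI (-0.62) and Hemin vs Control (-0.52), and without IRI+Hemin replicate 4 Acadm (-0.37) and Acadl (0.46) were called in IRI+Hemin vs Hemin. Beyond the untested genes, the cause was not tested. Leaving out 1 array in turn, or the 4 adipocyte-rich arrays together, gave 1 to 3 higher and 1 lower in IRI vs Control. The 1 higher there came only from leaving out the 4 together, where Cpt1a was lost (adjusted p = 0.0535). The same removals gave 5 to 6 and 0 to 1 in IRI+Hemin vs Hemin, 1 to 3 and 1 to 3 in IPC+IRI vs Control, and 1 and 3 to 4 in IPC+IRI vs IRI. They gave 3 to 4 and 0 to 2 in IRI+Hemin vs IRI, 0 to 2 and 1 to 4 in Hemin vs Control, and 1 to 2 and 0 in the interaction.

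Replicate numbers did not pair the arrays: deviations of same-numbered arrays correlated with r from -0.38 to 0.21, above 0.1 in 7 of 40 pairs. Between Control and IRI, which shared a scanning day, r was 0.13, 0.05, 0.15 and 0.11, above 0.1 in 3 of 4. With the replicate block Ppargc1a in IPC+IRI vs Control was 0.49 (adjusted p = 0.0516). The block also ended the calls of Pdk4 in IPC+IRI vs IRI (adjusted p = 0.054), Acadm in Hemin vs Control (0.0547) and the interaction of Ehhadh (0.0586). With no normalization the median of all genes moved to 0.35 in IPC+IRI vs Control, 0.41 in IPC+IRI vs IRI, 0.45 in IRI+Hemin vs IRI and 0.62 in Hemin vs Control. Of all calls, the share that was higher went from 41.5% to 75.2%, 59.6% to 90.7%, 59.2% to 91.4% and 51.3% to 94.7% there, and under normexp from 33.5% to 56.2% in IRI vs Control. A random slide block could not be fitted, since each group has its own slide.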
